A study of Saccharomyces cerevisiae with 8 samples.

Results

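The G2/M genes of budding yeast, those transcribed as cells enter and leave mitosis, were followed in 8 RNA libraries of Saccharomyces cerevisiae. The list was given by systematic name and held 33 genes: mitotic cyclins, the transcription factors of the program, mitotic kinases and exit factors, spindle motors, proteins of the bud neck and a few other genes with the same timing. Of these, 32 were found in the table of 7126 features and 1 was not analysed here. All 32 passed the filter on low values, a mean of at least 1 RPKM over the libraries. RPKM is the number of reads per kilobase of a gene, scaled to the size of the library. The genes lie on 13 chromosomes, are 414 to 8247 bp long and had 308 to 17358 reads each per library. Every stretch of 50 bases was unique in the genome for 31 of them, the exception being NUM1 with 79.26%, and 0 of the 32 overlapped another annotated gene.

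There were 4 genotypes with 2 libraries each: WT (strain GH69), cac2 (GH182), psh1 (GH72) and psh1 cac2 (GH194). Psh1 is a ubiquitin ligase that targets the centromeric histone Cse4 for destruction, and Cac2 is a subunit of CAF-1, the chaperone that deposits histones during DNA replication. In every library, WT included, Cse4 was overexpressed: cultures in raffinose medium were diluted to an OD600 of 0.1, grown for 2 h at 30 °C, given galactose to 4% and grown for 10 h, and no library without the overexpression is analysed here. Each genotype was 1 strain, grown in duplicate, so p-values measure the spread between these libraries. PSH1 and CAC2 were at or under 0.150 RPKM in every library whose genotype lacks them, and at 18.99 RPKM or more in all others. CSE4 itself differed between the genotypes, at 16625 and 14586 RPKM in WT, 10127 and 9616 in psh1, 23546 and 22798 in psh1 cac2 and 17956 and 19968 in cac2, the lowest values being those of psh1. The part of the CSE4 level in the results on G2/M genes was not tested. The libraries held 28177849 to 32057595 reads in features of known length.

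As background, many of these genes are switched on together when the forkhead factor Fkh2, bound beside Mcm1 on their promoters, recruits the coactivator Ndd1. Cyclin-dependent kinase with the mitotic cyclins, and the polo kinase Cdc5, then drive the spindle and feed back on the program. Cdc20 directs the anaphase-promoting complex to securin and cyclins, the kinase Dbf2 with Mob1 acts late in mitotic exit, and the factor Swi5 enters the nucleus to start genes of the next cycle. In a culture that is not synchronised, a level reflects both how many cells are in mitosis and how much RNA each holds, and in bulk RNA these cannot be told apart.

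Promoter sequence of 7 members was read from RefSeq assembly R64, for which sacCer3 is the browser name, because it shows the arrangement by which this program is known. A Mcm1 core (CC and GG with any 6 bases between them, the same on both strands) and a forkhead core (GTAAACA, on either strand) were searched from 250 bases before to 50 bases after each coding start, and counted as a pair when at most 60 bases lay between them. The closest pair is in capitals. HOF1 is shown for its rise in psh1, and DBF2 and MYO1 because they had the smallest changes among the members with a pair. All 3 are on the plus strand, HOF1 at chrXIII:335048-335347, DBF2 at chrVII:667939-668238 and MYO1 at chrVIII:151416-151715.
HOF1: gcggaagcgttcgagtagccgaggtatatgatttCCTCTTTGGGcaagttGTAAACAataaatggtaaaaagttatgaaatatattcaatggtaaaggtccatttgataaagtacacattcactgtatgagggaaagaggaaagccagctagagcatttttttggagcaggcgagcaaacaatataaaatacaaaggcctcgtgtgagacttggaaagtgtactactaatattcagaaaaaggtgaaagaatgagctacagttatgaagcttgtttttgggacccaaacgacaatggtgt
DBF2: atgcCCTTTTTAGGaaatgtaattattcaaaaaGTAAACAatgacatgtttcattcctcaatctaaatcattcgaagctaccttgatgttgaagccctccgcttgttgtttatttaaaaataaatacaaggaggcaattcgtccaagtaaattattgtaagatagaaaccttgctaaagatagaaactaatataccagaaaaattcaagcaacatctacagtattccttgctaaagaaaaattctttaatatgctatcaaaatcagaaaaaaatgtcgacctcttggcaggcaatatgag
MYO1: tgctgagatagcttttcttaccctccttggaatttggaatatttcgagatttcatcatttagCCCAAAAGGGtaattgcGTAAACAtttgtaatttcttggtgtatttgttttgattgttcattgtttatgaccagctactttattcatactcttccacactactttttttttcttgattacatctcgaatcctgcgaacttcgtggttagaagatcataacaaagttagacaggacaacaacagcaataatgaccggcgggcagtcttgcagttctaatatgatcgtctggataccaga
Shorter stretches around the pair follow for ALK1 (chrVII:454672-454714, plus strand), SPO12 (chrVIII:401182-401224, plus strand), BUD4 (chrX:598528-598570, plus strand) and SWI5 (chrIV:751027-751069, minus strand, found with a window of 600 bases before the start), to show how alike they are.
ALK1: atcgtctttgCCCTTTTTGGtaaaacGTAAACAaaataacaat
SPO12: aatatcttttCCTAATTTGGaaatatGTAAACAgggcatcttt
BUD4: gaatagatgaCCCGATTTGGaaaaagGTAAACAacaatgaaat
SWI5: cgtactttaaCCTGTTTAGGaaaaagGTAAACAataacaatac
In HOF1, ALK1, SPO12, BUD4 and SWI5 exactly 6 bases separate the Mcm1 core from the forkhead core, in MYO1 7 bases and in DBF2 19 bases.

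The pair was present in 7 of the 32 members (21.88%) and in 60 of 6001 promoters of the genome (1.00%). SWI5, printed above from the longer window, is not among these 7. Taken alone, the Mcm1 core was in 17 members, against 29.2% of all promoters, and the forkhead core in 14 members, against 6.55%. With a stricter form of the Mcm1 site, the Mcm1 box, a pair was in 6 members and in 0.283% of all promoters. When 600 bases before the start were searched, 10 members had a core pair, against 2.35% of all promoters of that length, among them SWI5 and BUD8. A match describes letters only, and a gene without a match has none in this window.

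**Figure D1:**
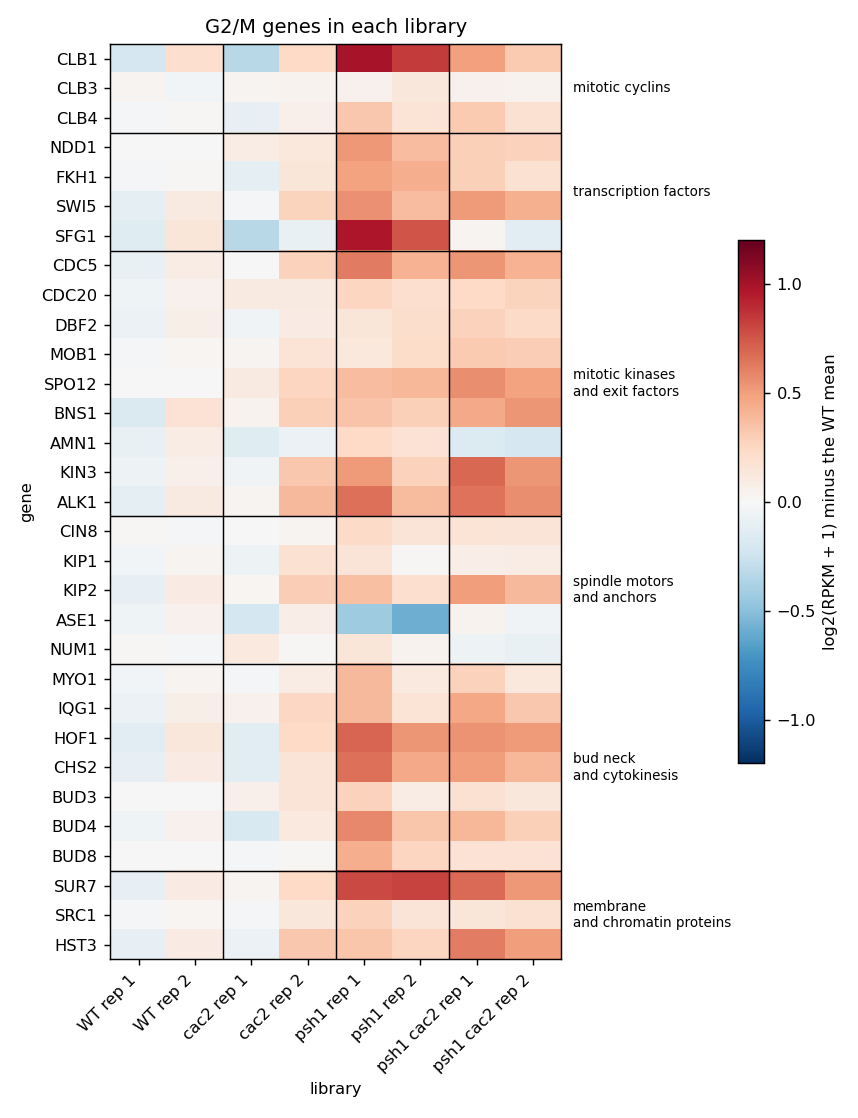
Level of 31 of the genes (vertical axis, grouped by role) in each of the 8 libraries (horizontal axis), as log2(RPKM + 1) minus the mean of the 2 WT libraries; red is above and blue below that mean. The psh1 and psh1 cac2 columns are mostly red, with the blue ASE1 cells of psh1 as an exception, and the second WT and cac2 libraries are redder than the first of each.

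In psh1 cells 15 of the 32 G2/M genes rose, 1, ASE1, fell and 16 were not called, where 7.65% of all 6366 tested features rose and 6.90% fell. The cyclin CLB1, the factor SFG1 and the plasma membrane protein gene SUR7 moved most, and the transcription factor genes NDD1, FKH1, SWI5 and SFG1 rose. The median of the 32 changes was 0.30 on the log2(RPKM + 1) scale, and 31 of the 32 lay above 0, while the median of all features was 0.00. All changes below are on this scale, with the standard error (SE) and the Benjamini-Hochberg adjusted p of limma over all tested features, and a gene is called at an adjusted p under 0.05.

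By library, 30 of the 32 genes were above both WT values in both psh1 libraries, 1 was below both and 1 overlapped, where 30.0% of all features were above and 27.9% below in this way. Leaving out libraries changed how many were called, and calls over all features, 926 in the main fit, fell in each such fit as well. The count of 16 became 3 when WT replicate 1 was omitted and 12 when WT replicate 2 was. It became 3 on omitting psh1 replicate 1 and 4 on omitting psh1 replicate 2. NDD1, SFG1 and SUR7 were called in all 17 alternatives run. No called member changed sign in any of them. In many of them the sign could not change, because the log2 change stays the same. Examples are the fits without the intensity trend, with the replicate block or without a library of another genotype.

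Among the mitotic cyclins, which activate the cyclin-dependent kinase Cdc28 in mitosis, CLB1 (YGR108W, chromosome VII, 703636 to 705051, plus strand) was measured at 25.6 and 34.4 RPKM in WT, 59.8 and 53.9 in psh1, 42.1 and 37.0 in psh1 cac2 and 23.3 and 35.2 in cac2. Both psh1 libraries lay above all others, and the WT and cac2 libraries were spread widely. CLB1 rose by 0.91 in psh1 (SE 0.194, limma adjusted p = 0.0214), and its change of 0.40 in psh1 cac2 did not pass (limma adjusted p = 0.245). CLB3 (YDL155W), a cyclin that acts from S phase to mitosis, was flat, at 29.9 and 28.5 RPKM in WT, 30.3 and 32.1 in psh1, 30.4 and 30.0 in psh1 cac2 and 29.9 and 30.0 in cac2. Its relative CLB4 (YLR210W) had lower levels, at 11.4 and 11.6 RPKM in WT, 14.6 and 13.0 in psh1, 14.5 and 13.1 in psh1 cac2 and 10.7 and 12.0 in cac2. Both mutants that lack PSH1 lay above WT and cac2 for CLB4, but its change of 0.24 in psh1 missed the threshold (SE 0.0847, limma adjusted p = 0.0935). The coding sequences of CLB3 and CLB4 share 63.5% of aligned bases and no run over 15 bp.

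The transcription factors of the program come next. NDD1 (YOR372C, chromosome XV, 1034807 to 1036471, minus strand), the coactivator, read 21.5 RPKM in both WT libraries, 31.2 and 28.0 in psh1, 26.5 and 26.2 in psh1 cac2 and 23.0 and 23.5 in cac2. The 4 genotypes did not overlap, with WT lowest and psh1 highest. NDD1 rose by 0.44 in psh1 (SE 0.0621, limma adjusted p = 0.00971) and by 0.28 in psh1 cac2 (limma adjusted p = 0.0402).

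FKH1 (YIL131C, chromosome IX, 100781 to 102235, minus strand), a forkhead factor related to Fkh2, was found at 16.8 and 17.1 RPKM in WT, 24.0 and 23.3 in psh1, 20.9 and 19.4 in psh1 cac2 and 15.5 and 18.8 in cac2. The psh1 libraries were highest and those of psh1 cac2 came next. FKH1 rose by 0.46 in psh1 (SE 0.0868, limma adjusted p = 0.016), and the change of 0.23 in psh1 cac2 did not pass (limma adjusted p = 0.155).

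SWI5 (YDR146C, chromosome IV, 748613 to 750742, minus strand), a zinc finger factor, stood at 25.4 and 29.5 RPKM in WT, 40.6 and 35.7 in psh1, 39.4 and 37.2 in psh1 cac2 and 27.1 and 33.3 in cac2. The libraries without PSH1 lay above all others. SWI5 rose by 0.46 in psh1 (SE 0.113, limma adjusted p = 0.0345), and its 0.47 in psh1 cac2 missed the threshold (limma adjusted p = 0.0544).

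SFG1 (YOR315W, chromosome XV, 904760 to 905800, plus strand) encodes a regulator of filamentous growth. Its values were 14.1 and 17.5 RPKM in WT, 31.7 and 27.3 in psh1, 16.1 and 14.3 in psh1 cac2 and 12.3 and 14.7 in cac2. Only the psh1 libraries were high, and those of psh1 cac2 lay within the range of WT. SFG1 rose by 0.86 in psh1 (SE 0.127, limma adjusted p = 0.0102) and was lower in psh1 cac2 than in psh1, with a change of -0.91 (SE 0.127, limma adjusted p = 0.00279). Its annotated neighbour COT1, 435 bp away, had a change of -0.05 in psh1 (limma adjusted p = 0.602).

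**Figure D2:**
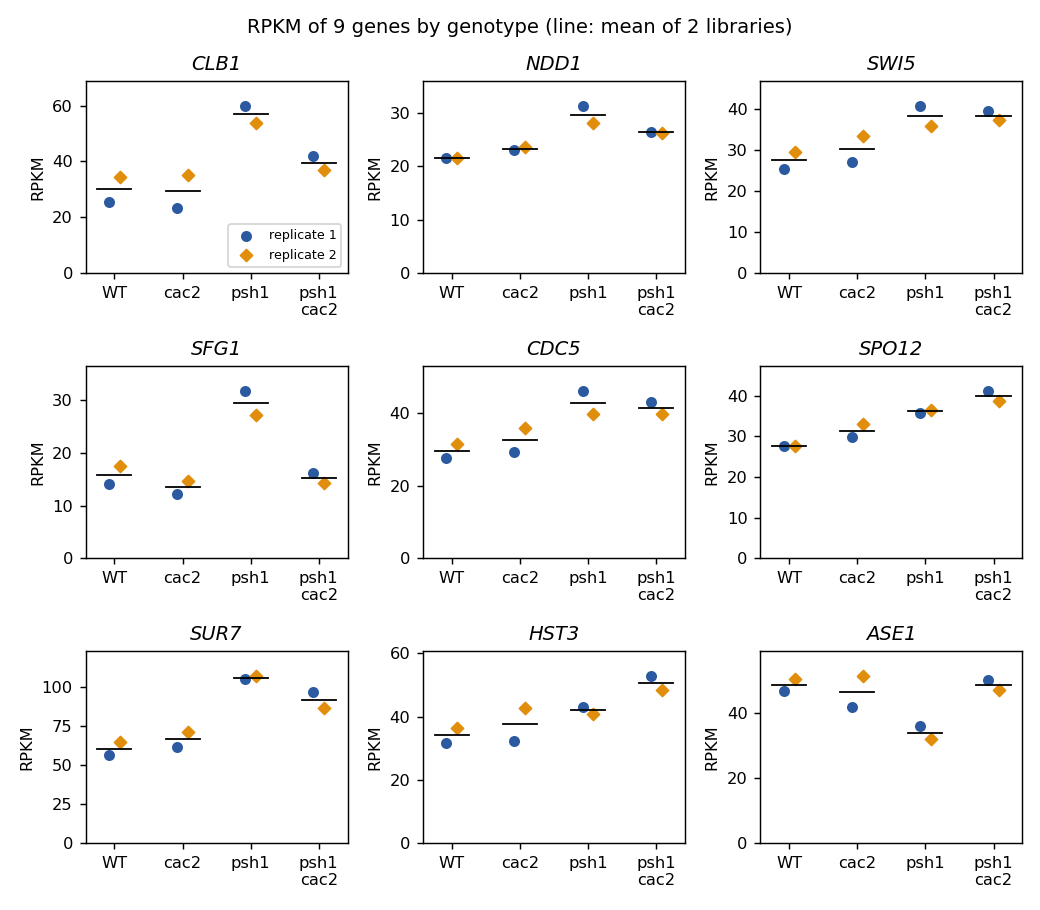
RPKM (vertical axes, from 0) of 9 genes by genotype (horizontal axes), with a circle for replicate 1, a diamond for replicate 2 and a line at their mean. SFG1 is high in psh1 alone, ASE1 is low there, SPO12 and SUR7 rose in both psh1 and psh1 cac2, and HST3 passed the threshold in psh1 cac2 alone.

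Of the 9 kinases and exit factors, 4 rose in psh1: CDC5, CDC20, SPO12 and ALK1. CDC5 (YMR001C, chromosome XIII, 269019 to 271136, minus strand), the polo kinase, was at 27.6 and 31.5 RPKM in WT, 46.0 and 39.7 in psh1, 43.0 and 39.6 in psh1 cac2 and 29.3 and 35.9 in cac2. Every library without PSH1 was above every library with it. CDC5 rose by 0.52 in psh1 (SE 0.116, limma adjusted p = 0.0247), and its 0.47 in psh1 cac2 did not pass (limma adjusted p = 0.056). CDC20 (YGL116W), the mitotic activator of the anaphase-promoting complex, rose by 0.23 in psh1 (SE 0.0568, limma adjusted p = 0.0355) and by 0.25 in psh1 cac2 (limma adjusted p = 0.0421).

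SPO12 and BNS1 are related small regulators of mitotic exit, and their coding sequences share 62.1% of aligned bases and no run over 11 bp. SPO12 (YHR152W, chromosome VIII, 401434 to 401955, plus strand) read 27.5 and 27.6 RPKM in WT, 35.8 and 36.6 in psh1, 41.1 and 38.8 in psh1 cac2 and 29.7 and 33.1 in cac2. The 4 genotypes did not overlap, and psh1 cac2 was highest. SPO12 rose by 0.38 in psh1 (SE 0.0657, limma adjusted p = 0.0116) and by 0.52 in psh1 cac2 (SE 0.0657, limma adjusted p = 0.00454). BNS1 (YGR230W) read 23.7 and 30.5 RPKM in WT, 34.5 and 33.1 in psh1, 37.2 and 39.2 in psh1 cac2 and 27.7 and 33.02 in cac2. The WT libraries of BNS1 were further apart than those of SPO12, and neither its 0.32 in psh1 (limma adjusted p = 0.114) nor its 0.49 in psh1 cac2 (limma adjusted p = 0.0564) passed.

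KIN3 and ALK1 encode protein kinases, KIN3 a relative of the mitotic NIMA kinase and ALK1 a haspin-like kinase. ALK1 (YGL021W, chromosome VII, 454785 to 457067, plus strand) was measured at 25.9 and 30.4 RPKM in WT, 44.9 and 36.8 in psh1, 44.5 and 41.7 in psh1 cac2 and 28.8 and 37.2 in cac2. KIN3 (YAR018C, chromosome I, 170396 to 171703, minus strand) was measured at 25.2 and 27.7 RPKM in WT, 38.0 and 32.2 in psh1, 43.2 and 38.7 in psh1 cac2 and 25.7 and 33.2 in cac2. For both genes the second cac2 library reached the range of psh1, while WT lay below psh1 and psh1 cac2. ALK1 rose by 0.52 in psh1 (SE 0.139, limma adjusted p = 0.0457) and by 0.60 in psh1 cac2 (SE 0.139, limma adjusted p = 0.046). KIN3 rose by 0.61 in psh1 cac2 (SE 0.129, limma adjusted p = 0.0336), and its 0.39 in psh1 did not pass (limma adjusted p = 0.0793).

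DBF2 and MOB1, kinase and activating subunit of the mitotic exit network, and AMN1, an inhibitor of that network in daughter cells, were not called in psh1, with changes of 0.18, 0.17 and 0.21. DBF2 ranged from 49.9 RPKM in WT replicate 1 to 63.7 in psh1 cac2 replicate 1. MOB1 ranged from 38.2 RPKM in WT replicate 1 to 48.5 in psh1 cac2 replicate 1.

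Of the 5 spindle genes limma called 0 higher in psh1, and ASE1 fell. An unadjusted p under 0.05 was found for 3 of the 5 and for 2028 of the 6366 features. ASE1 (YOR058C, chromosome XV, 433688 to 436345, minus strand) encodes the protein that bundles microtubules in the spindle midzone. It was found at 46.6 and 50.2 RPKM in WT, 35.8 and 31.8 in psh1, 49.9 and 46.8 in psh1 cac2 and 41.5 and 51.0 in cac2. The 2 psh1 libraries lay below all 6 others. ASE1 fell by 0.51 in psh1 (SE 0.104, limma adjusted p = 0.0199), and its neighbour SGT1, 314 bp away, had a change of -0.08 (limma adjusted p = 0.325). In psh1 cac2 the change of ASE1 against WT was 0.00.

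The related spindle motors CIN8 and KIP1, kinesins that push spindle poles apart, share 64.0% of aligned bases and no run over 17 bp. CIN8 (YEL061C) was at 14.6 and 14.3 RPKM in WT, 17.1 and 16.2 in psh1, 16.3 and 16.2 in psh1 cac2 and 14.5 and 14.9 in cac2. KIP1 (YBL063W) had the lowest level of the list, at 8.89 and 9.37 RPKM in WT, 10.2 and 9.20 in psh1, 9.69 and 9.75 in psh1 cac2 and 8.71 and 10.5 in cac2. CIN8 was higher in every library without PSH1, yet its change of 0.19 in psh1 missed the threshold (SE 0.0556, limma adjusted p = 0.0568), and the groups of KIP1 overlapped. KIP2, a kinesin of cytoplasmic microtubules, had a change of 0.28 in psh1 and 0.44 in psh1 cac2 without passing (limma adjusted p = 0.122 and 0.0599). NUM1, the cortical anchor of dynein, stayed between 52.0 and 61.4 RPKM in all libraries.

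At the bud neck, 4 of 7 genes rose in psh1: HOF1, CHS2, BUD4 and BUD8. HOF1 (YMR032W, chromosome XIII, 335298 to 337307, plus strand) encodes an F-BAR protein of the contractile ring, and its promoter is printed above. Its levels were 14.0 and 17.1 RPKM in WT, 25.7 and 22.8 in psh1, 23.0 and 22.4 in psh1 cac2 and 14.1 and 18.4 in cac2. CHS2 (YBR038W, chromosome II, 311898 to 314789, plus strand), the chitin synthase of the primary septum, had levels of 26.1 and 30.3 RPKM in WT, 45.2 and 38.9 in psh1, 40.2 and 37.3 in psh1 cac2 and 25.4 and 31.3 in cac2. In both genes the libraries without PSH1 were above all those with it. HOF1 rose by 0.61 in psh1 (SE 0.131, limma adjusted p = 0.0217) and CHS2 by 0.56 (SE 0.119, limma adjusted p = 0.0213). In psh1 cac2 neither passed, at 0.53 for HOF1 (limma adjusted p = 0.0599) and 0.45 for CHS2 (limma adjusted p = 0.0701).

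BUD4 (YJR092W, chromosome X, 598735 to 603078, plus strand), which marks the site of axial budding, had levels of 21.2 and 22.8 RPKM in WT, 33.3 and 28.1 in psh1, 29.3 and 27.1 in psh1 cac2 and 19.3 and 23.9 in cac2. Here too the libraries without PSH1 were above the rest. BUD4 rose by 0.46 in psh1 (SE 0.113, limma adjusted p = 0.0348), and its 0.34 in psh1 cac2 did not pass (limma adjusted p = 0.12). BUD8 (YLR353W), a marker of the distal bud pole, rose by 0.35 in psh1 (SE 0.0669, limma adjusted p = 0.017). The type II myosin gene MYO1, the ring scaffold gene IQG1 and the axial marker gene BUD3 were not called in psh1, with changes of 0.25, 0.28 and 0.19.

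The last 3 members are a membrane protein and proteins of chromatin. SUR7 (YML052W), a protein of plasma membrane eisosomes, was at 56.2 and 64.5 RPKM in WT, 105 and 106 in psh1, 96.7 and 86.6 in psh1 cac2 and 61.4 and 71.3 in cac2. WT and cac2 overlapped, and psh1 lay above psh1 cac2, which lay above both. SUR7 rose by 0.80 in psh1 (SE 0.0997, limma adjusted p = 0.00723) and by 0.60 in psh1 cac2 (SE 0.0997, limma adjusted p = 0.0132). Its neighbour GAL80, 283 bp away, had a change of 0.00 in psh1 (limma adjusted p = 0.984). Most neighbours of the called members were, like GAL80, COT1 and SGT1, not called in psh1. Of all features 7.65% rose and 6.90% fell there. A few neighbours moved, not all of them upward, and the rises that follow are examples. NUD1 beside NDD1 rose by 0.41 (limma adjusted p = 0.0221) and ATP3 beside CHS2 by 0.37 (limma adjusted p = 0.0174). YMR001C-A beside CDC5 rose by 0.84 (limma adjusted p = 0.0071).

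HST3 (YOR025W, chromosome XV, 378219 to 379562, plus strand), which encodes a sirtuin that removes acetyl groups from histone H3, was at 31.7 and 36.5 RPKM in WT, 43.1 and 41.0 in psh1, 52.7 and 48.4 in psh1 cac2 and 32.3 and 42.7 in cac2. The psh1 cac2 libraries were highest, and the second cac2 library lay within the range of psh1. HST3 rose by 0.56 in psh1 cac2 (SE 0.127, limma adjusted p = 0.0435), and its 0.30 in psh1 did not pass (limma adjusted p = 0.151). SRC1, an inner nuclear membrane protein gene, had changes of 0.21 in psh1 and 0.17 in psh1 cac2, and neither passed.

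**Figure D3:**
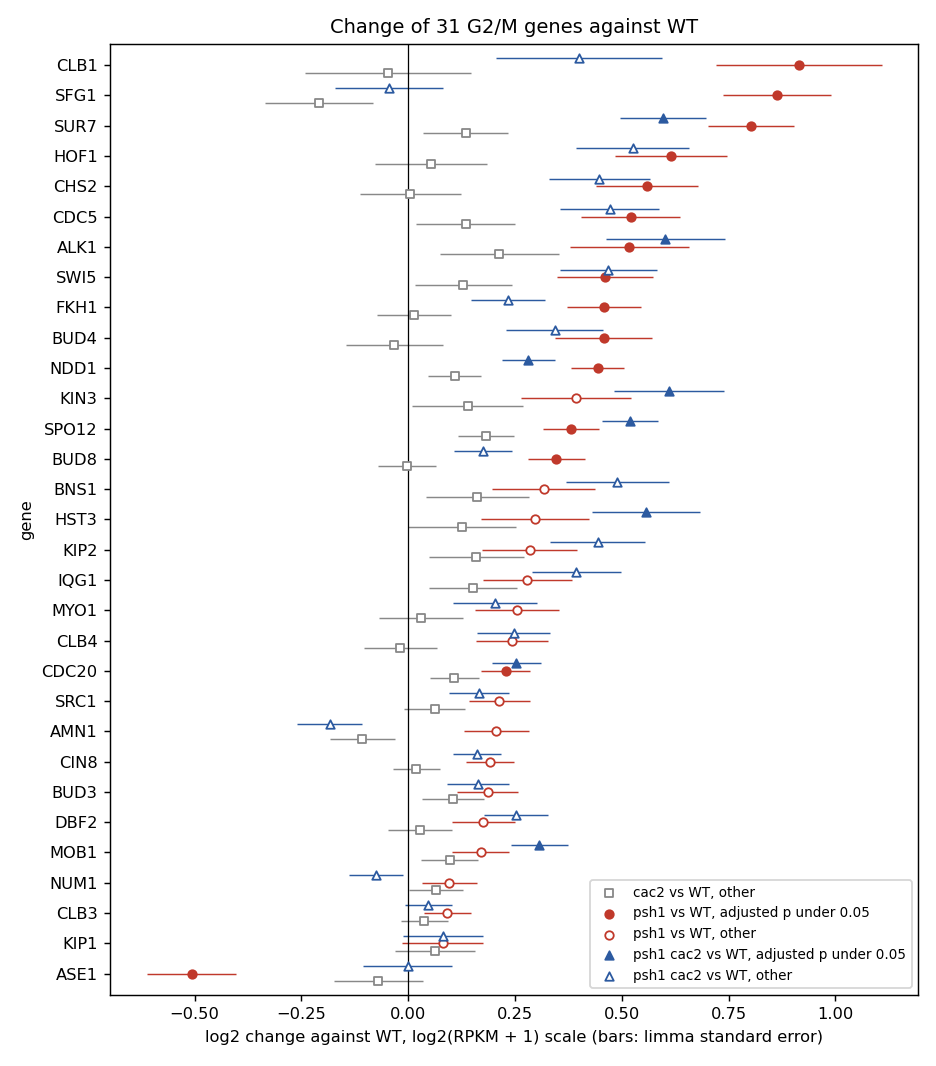
Change of 31 of the genes against WT (horizontal axis, log2(RPKM + 1) scale, bars are limma standard errors), sorted by its value in psh1; filled symbols passed the adjusted p threshold of 0.05. Filled symbols are most frequent for psh1, and 0 are filled for cac2.

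In cac2 cells 0 of the 32 G2/M genes were called by limma against WT, where 4.26% of all features were. With limma-voom on recovered reads 0 were called as well. An unadjusted limma p under 0.05 was found for 2 of the 32 and for 1434 of the 6366 features. The changes ran from -0.21 for SFG1 to 0.21 for ALK1, with a median of 0.06. Both cac2 libraries lay above both WT libraries for 8 of the 32 genes, where 25.5% of all features did. Of the 32, 0 lay below both, where 26.5% of all features did, and 24 overlapped. SPO12 had the smallest p, with a change of 0.18 (limma adjusted p = 0.169). With libraries scaled to equal total reads the median of all features in this comparison moved to -0.14, and members above 0 fell from 25 to 6. That scaling called 1 member, lower, where 26.6% of all features were called.

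In psh1 cac2 cells 9 of the 32 genes rose against WT and 0 fell, where 3.86% of all features rose and 2.18% fell. Among them were NDD1, CDC20, MOB1, SPO12, KIN3, ALK1, SUR7 and HST3, with rises from 0.25 for CDC20 to 0.61 for KIN3. MOB1 rose by 0.31 (limma adjusted p = 0.0363). The median of the 32 changes was 0.29, and 28 lay above 0. By library 28 were above both WT values and 2, AMN1 and NUM1, below both, where 27.7% of all features were above and 27.4% below. The kinases and exit factors supplied 5 of the 9 calls and the bud neck genes 0 of 7. All 7 lay above 0 and 5 had an unadjusted p under 0.05, as did 1578 of the 6366 features. The comparison shares its WT libraries with that of psh1, so the values of each stand side by side above.

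Calls over all features, 385 in the main fit, were fewer in every fit with a library left out. The count of 9 members changed with the libraries and features in the fit. It was 1 when WT replicate 1 was omitted and 4, of which 3 were among the 9, when WT replicate 2 was. Leaving out either psh1 library gave 5, and leaving out either cac2 library 12. Without psh1 cac2 replicate 1 it was 1, and without psh1 cac2 replicate 2 it was 0. With Ty reading frames left out there were 5, where 3.62% of features were called, and with limma-voom on recovered reads 13, where 6.18% were. SPO12 was called in 16 of the 17 alternatives.

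Loss of PSH1 was also compared in cells that lack CAC2. In psh1 cac2 against cac2, 0 of 32 genes were called by limma, where 0.895% of all features were, and 0 by limma-voom. An unadjusted p under 0.05 was found for 22 of the 32 and for 1515 of the 6366 features. Scaling to equal total reads called 2, where 2.97% of all features were called. A fit with the replicate number as a block also called 2, where 8.17% of all features were called. The median change was 0.22, with 30 of 32 above 0. The nearest to the threshold were SPO12, with a change of 0.34 (limma adjusted p = 0.0627), and SUR7, with a change of 0.46 (limma adjusted p = 0.0729).

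Loss of CAC2 in cells that already lack PSH1 changed 3 of the genes: ASE1 was higher and SFG1 and AMN1 lower in psh1 cac2 than in psh1. Across all features 11.2% were higher and 12.2% lower, both larger shares than among the 32 genes. ASE1 differed by 0.51 (SE 0.104, limma adjusted p = 0.0135), and its psh1 cac2 libraries at 49.9 and 46.8 RPKM lay within the range of WT. AMN1 (YBR158W, chromosome II, 556549 to 558198, plus strand) was at 60.9 and 69.3 RPKM in WT, 76.8 and 73.5 in psh1, 57.9 and 56.3 in psh1 cac2 and 58.8 and 61.8 in cac2. It was highest in psh1 and lowest in psh1 cac2, with a change of -0.39 between them (SE 0.0754, limma adjusted p = 0.0106). The median over the 32 genes was -0.03, with 15 above 0. With libraries scaled to equal total reads the count of 3 became 10, where 41.2% of all features were called. Leaving out a library also changed the count for some libraries. Calls over all features, 1493 in the main fit, fell in each such fit.

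The interaction asked whether psh1 cac2 departed from the sum of the changes in psh1 and cac2. By limma 0 of the 32 genes were called, where 0.0157% of all features were, and 0 by limma-voom. An unadjusted p under 0.05 was found for 6 of the 32 genes and for 866 of the 6366 features. SFG1 departed by -0.70, with an interval at 95% from -1.11 to -0.28, and ASE1 by 0.58, with an interval from 0.23 to 0.92. Both had a limma adjusted p of 0.19. The others at an unadjusted p under 0.05 were NDD1, AMN1, NUM1 and SUR7, with departures of -0.27, -0.28, -0.24 and -0.34. The median over the 32 genes was -0.10. For CLB1, whose level in psh1 cac2 lay between WT and psh1, the interval from -1.10 to 0.17 included 0.

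The 32 genes also moved together between libraries of the same genotype. In WT 28 of the 32 genes (87.5%) were higher in replicate 2 than in replicate 1, and in cac2 31 (96.9%) were. In psh1 only 6 (18.8%) and in psh1 cac2 only 5 (15.6%) were higher in replicate 2. Over all features the shares were 49.6%, 43.9%, 49.6% and 44.6%. The median difference of the genes, replicate 2 minus replicate 1, was 0.11 in WT and 0.20 in cac2, but -0.15 in psh1 and -0.08 in psh1 cac2. The 32 values of a library thus share that library's deviation.

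Summed over the genes, the level was 906 and 991 RPKM in WT, 1257 and 1165 in psh1, 1202 and 1140 in psh1 cac2 and 928 and 1060 in cac2. Every library without PSH1 was above every library with it, and the second cac2 library was the closest of the latter. The range within cac2 was wider than the gap between cac2 replicate 2 and psh1 cac2 replicate 2. No measure of cell cycle position or growth rate is among the values used here, so the part of either in these differences was not tested.

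**Figure D4:**
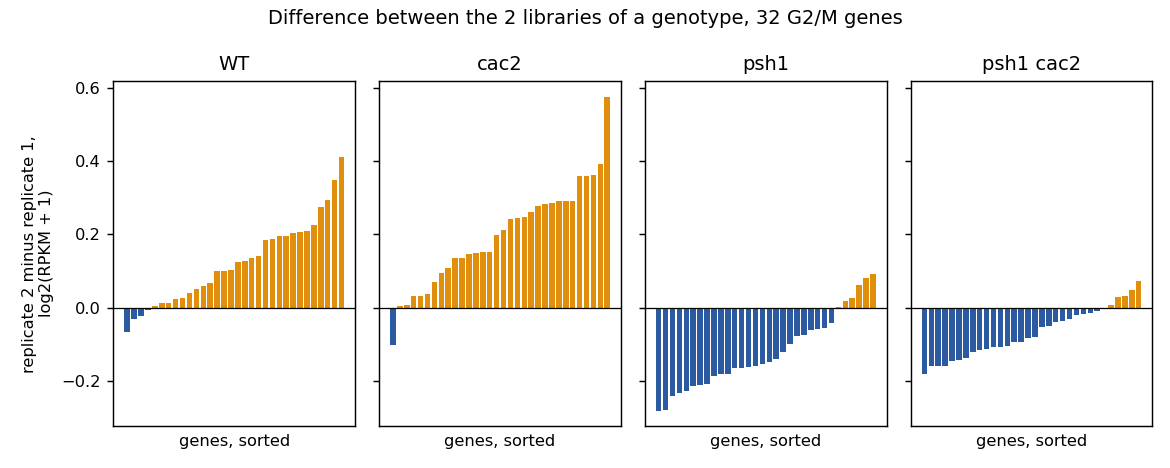
Difference between the 2 libraries of each genotype (vertical axis, replicate 2 minus replicate 1 on the log2(RPKM + 1) scale) for the 32 genes, sorted within each panel; orange bars are above 0 and blue bars below. Most bars are orange in WT and cac2 (28 and 31 genes) and blue in psh1 and psh1 cac2 (6 and 5 genes above 0).

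The members with the promoter pair were set beside those without. In psh1 5 of the 7 with a pair rose, with a median change of 0.46, and of the 25 without, 10 rose and 1 fell, with a median of 0.28. Outside the list, 51 tested genes had a pair, and 6 of them rose and 4 fell, with a median of 0.04, where 7.65% of all features rose and 6.90% fell. In psh1 cac2 3 of the 7 rose, with a median of 0.52, and of the 25 without, 6 rose and 0 fell, with a median of 0.25. Of the 51 other genes 3 rose and 1 fell there, with a median of 0.01, where 3.86% of all features rose and 2.18% fell. These are descriptions, and no difference between the sets was tested.

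Of 57 further genes of the same pathways, 11 rose in psh1 and 0 fell, where 7.65% of all features rose and 6.90% fell. The 57 were chosen with earlier results of these data known, so their counts are no independent evidence. Microtubule genes supplied 5 of 13: the tubulin genes TUB1 and TUB2 rose by 0.52 and 0.46, STU2, a microtubule polymerase gene, by 0.43, and CIK1, a partner of the kinesin Kar3, by 0.40. Septin and neck genes supplied 3 of 10, namely the septin genes CDC3 and CDC10, at 0.38 and 0.31, and the kinase gene GIN4 at 0.36. In the group of the anaphase-promoting complex, separase and mitotic exit 2 of 15 rose, PDS1, which encodes securin, by 0.57 and the phosphatase gene CDC14 by 0.22. PDS1 was at 11.3 and 11.1 RPKM in WT, 17.0 and 17.1 in psh1, 12.7 and 12.8 in psh1 cac2 and 11.3 and 10.9 in cac2, with psh1 above all others. Of the 8 regulators of the program 1 rose, the kinase gene SWE1, by 0.26. The counts of 2 of 15 and 1 of 8 are near the share of all features that rose. MCM1 and FKH2 themselves had changes of 0.00 and -0.11 in psh1 and did not pass, and CDC28 had 0.06.

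Genes that act in daughter cells and early in the next cycle, Swi5 targets among them, were counted as well. Of 11 such genes limma called 0 in psh1, where 2 had an unadjusted p under 0.05, as did 2028 of the 6366 features. In psh1 cac2 against WT 4 fell, where 2.18% of all features fell, while SWI5 RNA had a change of 0.47 there. The 4 were DSE2, SCW11, DSE1 and CTS1, genes of cell wall proteins and of daughter cell separation, which fell by 0.53, 0.46, 0.41 and 0.40. CTS1, the chitinase gene, was at 311 and 355 RPKM in WT, 341 and 350 in psh1, 249 and 255 in psh1 cac2 and 311 and 314 in cac2. The psh1 cac2 libraries were the lowest of the 8. Against psh1, 7 of the 11 were lower in psh1 cac2, where 12.2% of all features were. In the same comparison with WT, TUB1, TUB2, CIK1 and TUB3 rose by 0.43, 0.36, 0.34 and 0.33 and TEM1, the GTPase gene of the mitotic exit network, by 0.47. In cac2 against WT, and in psh1 cac2 against cac2, 0 of the 57 genes were called by limma. Of all features 4.26% and 0.895% were called. An unadjusted p under 0.05 was found for 4 and 26 of the 57, and for 1434 and 1515 of the 6366 features.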

How the data were processed

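RNA from 8 cultures was depleted of ribosomal RNA (from 1000 ng) and made into stranded libraries, per the labels' protocols. The authors deposited RPKM values per feature. Build sacCer3 and the tools TopHat2 2.0.13, edgeR 3.14.0 and bcl2fastq 2.18 are listed, per the submitters' processing notes, and how reads were counted, and on which strand, is not given in the sources used here. RPKM times RefSeq length was a whole number of reads, within 0.01, for 99.808% of values in the 6048 features matched by locus tag, while 1078 did not match. The library size the authors divided by was 1.00 to 1.16 times these reads, lowest in cac2 and highest in psh1. A gene of 1 kb with 3 reads is at 0.0837 to 0.0982 RPKM, a floor for counting error alone.

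Values were log2(RPKM + 1), for 6366 features with a mean of at least 1 RPKM. This scale understates changes of low genes. The linear model used limma (version 3.58.1, R 4.3.3, eBayes with intensity trend) over all 8 libraries, genotype being the only term (4 residual and 3.85 prior degrees of freedom). Two-sided p-values were adjusted by Benjamini-Hochberg within each of 6 comparisons, with a threshold of 0.05. The code was tested on simulated data. Members and lists were chosen with earlier results of these data known. Members are named in order of role, and values of 1 member and 1 promoter sequence are not reported here. Values per library are given for those called with a change of at least 0.4 in a comparison with WT or in the interaction and for related pairs, and of each further list at most 4 called genes by smallest p. AMN1 and the other values given in the comparison with psh1, and the library values of PDS1 and CTS1, were chosen after their values were seen. Alternatives covered pseudocount, filter, scaling, samples, trend, limma-voom on reads, Ty reading frames, the replicate block and each library left out.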

Additional observations from a re-analysis of the deposited data

How the results depend on the processing

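The 28 calls of a member in a comparison were recomputed under 17 alternatives, 476 values in all. Of these 336 stayed past the threshold, 140 kept the direction but missed it, and 0 turned. Many alternatives leave the log2 change as it is, so there the direction could not turn. Labels number the libraries 1 and 2 and state no pairing. Over all tested features, deviations of same-numbered libraries correlated at 0.038 to 0.443 between genotypes, every value above 0. The main fit has no term for the replicate number, and whether same-numbered libraries share an effect was not tested. With the replicate block the members called numbered 17 in psh1 cac2 against WT and 2 against cac2, and all 28 calls were kept. Against WT the block called 1625 features in psh1, 984 in psh1 cac2 and 821 in cac2, where the main fit called 926, 385 and 271. It called 520 between psh1 cac2 and cac2 and 130 for the interaction, where the main fit called 57 and 1.

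Scaling to equal total reads put the median change of all features at -0.14 in cac2 against WT and in psh1 cac2 against psh1. It called 1 member in cac2 and 4 in psh1 cac2 against WT, 2 in psh1 cac2 against cac2 and 10 against psh1, among 1693, 763, 189 and 2625 features. Without a filter on low values 9 members were called in psh1 and 3 in psh1 cac2 against WT, among 708 and 319 features. In psh1 cac2 against cac2 that setting called 2 features. Fitting the compared groups alone called 5 members in psh1 cac2 against WT, among 231 features, and 5 against psh1, among 1468. That setting called 582 features in psh1 against WT and 23 in psh1 cac2 against cac2. With Ty reading frames left out 5 members were called in psh1 cac2 against WT, among 227 features, and 105 features in cac2. Without the intensity trend 4 members were called in psh1 cac2 against WT, among 366 features, and 12 features against cac2. Limma-voom on recovered reads called 5 features in psh1 cac2 against cac2 and 0 for the interaction, and quantile normalization 5 for the interaction.

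With each library left out in turn, where a lone library is assumed to vary like the other groups, members called ran from 3 to 16 in psh1 and from 0 to 12 in psh1 cac2 against WT, and from 1 to 5 in psh1 cac2 against psh1. Features called then ran from 153 to 254 in cac2, 93 to 826 in psh1 and 13 to 373 in psh1 cac2 against WT, 2 to 32 in psh1 cac2 against cac2, 502 to 1489 against psh1, and 1 to 41 for the interaction. The cause of these changes was not tested, beyond the fewer libraries or features in some fits. Members had at least 308 reads in every library.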
